A study of Mus musculus with 5 samples.

Results

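Of the 22255 H3K4me3 regions called against IgG in diluent-treated mouse dendritic cells, 848 (3.81%) were wider than 5000 bp, and these broad domains are described here. They were chosen by their width in the diluent library alone, so every statement about that width is a description. They held 5.47 Mb, or 12.2% of the 44.8 Mb under all regions of the list. Their width ran from 5001 bp to 14287 bp with a median of 6073 bp, and the middle 50% lay between 5415 and 6976 bp. Just inside the limit were the domains of Dnaja1 (5001 bp), Pnrc1 (5002 bp), Pydc4 (5004 bp) and Klhl9 (5007 bp), and just outside it were the regions of Tmem184b (4998 bp), Yy1 (4995 bp), Ptprc (4991 bp) and Gsr (4989 bp). The other regions of the list served for comparison in 2 classes, 8348 regions above 2000 and up to 5000 bp and 13059 regions of up to 2000 bp.

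The cells came from marrow of C57BL/6 female mice aged 10 weeks, cultured in GM-CSF and IL-4 (10 ng/mL of each) over 7 days and selected for CD11c to a stated purity of 95%. They were then kept for 12 hours in diluent, so they were not strictly untreated, or in SAHA (vorinostat, an inhibitor of histone deacetylases) at a dose labelled 500 nm. The 5 ChIP-seq libraries, 1 per group, were H3K4me3 and STAT3 in diluent, H3K4me3 and STAT3 in SAHA, and IgG in diluent, which was the control for every list. No group had a replicate, so no difference between diluent and SAHA has a replicate check, and no p-value between them was computed. The H3K4me3 libraries held 22420200 filtered tags in diluent and 21428355 in SAHA and came from 1 flow cell. The STAT3 libraries held 25013431 in diluent and 17810183 in SAHA.

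H3K4me3 is trimethylation of lysine 4 on histone H3, laid down by the SET1 and MLL methyltransferase complexes around the starts of active genes. At most genes the mark covers a short stretch on either side of the start. At a minority it spreads far into the transcribed gene, and such broad domains are known to lie at genes of cell identity and at genes that are transcribed at a high and steady rate. CpG islands, stretches rich in the CG dinucleotide, draw the CXXC-domain subunits of these complexes. STAT3 is a transcription factor that is activated by cytokine receptors through Janus kinases and binds palindromes of the form TTC, 3 free bases and GAA.

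The promoters of domain genes are shown first, because sequence was not used to choose the domains. RefSeq promoter sequences (GRCm38.p6) run from 250 bases before the start to 50 bases after it, 300 bases in all. Of 776 named genes whose start lay in a domain, 457 had exactly 1 RefSeq promoter entry. The ratio of observed to expected CG dinucleotides had a median of 0.743 at these promoters, with the middle 50% from 0.502 to 0.902. The median was 0.817 at the 4451 matched promoters of regions above 2000 and up to 5000 bp, and 0.374 over all 22862 RefSeq promoters of genes with 1 entry. A ratio of at least 0.6, a usual limit for a CpG island, was reached by 68.3% of the domain promoters, 82.0% of those in the middle width class and 35.7% of all promoters. A domain could therefore lie over a promoter of either kind, as a pair of them shows. The pair does not mark the extremes, since Ranbp2 had a ratio of 1.23 and Lilrb3 one of 0.0471. Rap1b, a small GTPase of integrin activation, held 48 CG dinucleotides (ratio 1.05). Slfn2, a Schlafen family gene of immune cell quiescence, held 2 (ratio 0.110). Their domains were 7047 and 7607 bp wide. Capitals mark the CG dinucleotides, and both promoters are written 5′ to 3′ on the gene's own strand, that of Rap1b from chr10:117845925-117846224 (minus strand) and that of Slfn2 from chr11:83064862-83065161 (plus strand).
Rap1b: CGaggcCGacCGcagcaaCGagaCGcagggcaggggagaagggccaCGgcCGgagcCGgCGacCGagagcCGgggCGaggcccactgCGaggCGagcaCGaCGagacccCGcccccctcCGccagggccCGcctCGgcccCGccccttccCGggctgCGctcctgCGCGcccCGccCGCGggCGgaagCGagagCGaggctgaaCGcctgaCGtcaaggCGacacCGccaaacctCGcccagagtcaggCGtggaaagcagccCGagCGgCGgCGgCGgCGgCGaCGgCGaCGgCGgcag
Slfn2: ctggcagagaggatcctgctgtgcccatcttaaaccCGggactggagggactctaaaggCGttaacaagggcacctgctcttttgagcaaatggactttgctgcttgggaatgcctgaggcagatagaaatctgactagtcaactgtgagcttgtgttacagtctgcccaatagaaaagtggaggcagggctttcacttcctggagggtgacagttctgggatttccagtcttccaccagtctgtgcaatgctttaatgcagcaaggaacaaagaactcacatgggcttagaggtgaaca

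The TATA motif TATAAA, searched on both strands, was in 12.0% of domain promoters, 6.09% of promoters in the middle width class and 14.8% of all promoters. The motif GAGGAAGT, a core bound by PU.1 (the product of Spi1), was in 4.16%, 3.62% and 3.32% of the same sets on both strands. The STAT palindrome TTCNNNGAA, which reads the same on both strands, was in 6.78%, 6.87% and 8.49%. Each motif was searched on its own, so matches of different motifs may overlap. Among the domain promoters with 1 entry, 74 had a STAT3 region within 500 bp of the listed start, and 10 of these (13.5%) held the palindrome. Of these, the following 4 are shown for genes of cytokine and interferon response, and they were picked after their values were seen. Capitals mark TTCNNNGAA. The STAT3 regions are mm9 positions and the promoters GRCm38.p6, so no region was placed on a sequence.
Irf2: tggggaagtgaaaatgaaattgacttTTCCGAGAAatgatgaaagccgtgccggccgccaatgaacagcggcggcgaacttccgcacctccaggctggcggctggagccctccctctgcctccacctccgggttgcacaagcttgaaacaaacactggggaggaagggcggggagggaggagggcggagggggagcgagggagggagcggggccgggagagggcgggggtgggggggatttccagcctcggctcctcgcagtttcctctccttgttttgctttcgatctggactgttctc
Zfp36: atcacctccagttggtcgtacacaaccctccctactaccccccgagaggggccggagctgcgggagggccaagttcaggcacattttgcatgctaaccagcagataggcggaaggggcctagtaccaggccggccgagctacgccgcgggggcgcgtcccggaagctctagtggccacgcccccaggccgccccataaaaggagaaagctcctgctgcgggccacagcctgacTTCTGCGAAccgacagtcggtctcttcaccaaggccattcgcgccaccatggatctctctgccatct
Sod2: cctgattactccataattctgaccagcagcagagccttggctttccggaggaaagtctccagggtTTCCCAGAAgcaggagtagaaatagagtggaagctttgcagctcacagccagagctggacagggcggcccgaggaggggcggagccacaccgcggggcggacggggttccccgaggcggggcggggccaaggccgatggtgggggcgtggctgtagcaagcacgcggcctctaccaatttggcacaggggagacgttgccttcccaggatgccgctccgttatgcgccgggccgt
Icam1: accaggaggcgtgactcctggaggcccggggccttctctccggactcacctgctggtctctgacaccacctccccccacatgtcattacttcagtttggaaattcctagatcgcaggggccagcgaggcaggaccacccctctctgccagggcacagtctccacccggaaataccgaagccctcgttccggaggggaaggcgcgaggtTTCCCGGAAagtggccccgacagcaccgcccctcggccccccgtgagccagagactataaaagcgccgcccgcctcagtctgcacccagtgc
Distances to a start are in the direction of transcription, negative upstream. The Irf2 promoter (chr8:46739495-46739794, plus strand) carries the palindrome 224 bases before the start, and its gene encodes a repressor in the interferon response. Irf2 had a STAT3 region beside its start in both libraries, at mm9 chr8:47825078-47825618 in diluent and chr8:47824513-47825068 in SAHA. These regions did not overlap each other. The Zfp36 promoter (chr7:28379179-28379478, minus strand) carries it 17 bases before the start. Zfp36 encodes tristetraprolin, which destabilises cytokine mRNAs, and its STAT3 region was in SAHA alone, -81 bp from the listed start. In the Sod2 promoter (chr17:13007589-13007888, plus strand) it begins 185 bases before the start. Sod2, the mitochondrial superoxide dismutase, had a STAT3 region -417 bp from its start in diluent alone, while another, 2443 bp downstream, overlapped a SAHA region. In the Icam1 promoter (chr9:21015690-21015989, plus strand) it begins 42 bases before the start. Icam1, an adhesion molecule of the contact between dendritic cell and T cell, had its STAT3 region in SAHA alone, 24 bp from the start.

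The authors' list names 1 gene for each region, and the 848 domains carried 832 distinct symbols. The inhibitory receptor gene Lilrb4 was named for 4 domains, and 13 further symbols, Jak2, Pim1, Cflar, Rara and Evi2b among them, were named for 2. The listed transcription start of the named gene lay inside 816 domains (96.2%), against 89.3% of regions in the middle width class and 28.8% of regions of up to 2000 bp. A wider region has more room for a start, so these shares rise with width by construction. Starts of 2 or more genes lay in 72 domains, and no listed start lay in 46. The midpoints of 27 domains were over 5 kb from the listed start, and those of 2 of the Lilrb4 domains lay 26.72 and 36.94 kb away. On mm9, domains were 13 of 651 regions on chromosome X and 41 of 806 (5.09%) on chromosome 19, the extremes among the chromosomes.

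The widest domain, 14287 bp at chr19:5837857-5852143, was listed under the transcript AK197973, which has no gene symbol. The widest with a gene symbol lay at Znfx1 (13431 bp at chr2:166878397-166891827), an interferon-induced helicase gene. Next were Cacnb3 (13223 bp at chr15:98456860-98470082), a calcium channel subunit gene, and Hif1a (12549 bp at chr12:75001631-75014179), the hypoxia-regulated transcription factor gene. Traf1 (11936 bp at chr2:34808263-34820198) encodes an adaptor of TNF receptor signalling, and Brd2 (11800 bp at chr17:34250607-34262406) a reader of acetylated histones. The housekeeping-type genes Pfn1 (11398 bp), for the actin binder profilin, and Atp6v0c (11374 bp), for a proton pump subunit, followed. The lysosomal genes Psap (11310 bp), Npc2 (10998 bp) and Ctsb (10980 bp) were among the 15 widest. Also among them were Ccnl1 (11279 bp), a cyclin of RNA processing, the repressor gene Bcl6 (11106 bp) and Edem1 (10995 bp), a factor of protein quality control. Setd1b (11105 bp), which encodes a methyltransferase that lays down H3K4me3 itself, and Nfe2l2 (11005 bp), the regulator of the oxidative stress response, completed the 15.

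Relative to the gene, the domains were lopsided. They reached a median of 1755 bp upstream of the start and 4336 bp downstream, and the downstream arm was the longer in 680 of 816 (83.3%). The middle width class had arms of 1057 and 1655 bp, with the downstream arm longer in 82.6%, so the share was similar while the domains' arms were longer on both sides. The summit of the single-library region, available for 762 domains, lay a median of 410 bp downstream of the start, against 222 bp in the middle class. The median transcript at a domain was 20480 bp long and covered over 21.3% of its length, against 22052 bp and 7.79% in the middle class. In 106 cases (13.0%) the domain covered the whole listed transcript, against 261 (3.50%) in the middle class. These covered genes included the immediate early genes Fos, Jun and Junb, the survival gene Mcl1, the inhibitor genes Nfkbia and Socs2, the receptor gene Lilrb3, and Actb, Cst3, Btg1 and Txnip.

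Domains were listed for 756 of the 12200 protein-coding genes that the list names (6.20%), and the gene lists were read against that share. Over all lists, with each gene counted once, 83 of 326 named members (25.5%) had a domain. Some lists share members, Bcl6, Junb, Cd83 and Icam1 among them, so their shares are not separate results. The lists were chosen with results of these data known, so the counts are descriptions. Counting intervals are drawn in the plot of gene lists.

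The transcription factors of dendritic cell identity were broad in 15 of 24 (62.5%). They were led by Bcl6, Zeb2 (10131 bp at chr2:44959602-44969732), which guides plasmacytoid and conventional dendritic cell fates, Irf8 (9571 bp at chr8:123259095-123268665), the factor of the type 1 conventional lineage, and Id2 (9551 bp), which restrains the plasmacytoid programme. Rel (9111 bp), an NF-kB subunit, and Etv6 (8769 bp), an ETS repressor, followed. Spi1 (Sfpi1 in the authors' list), the gene of the myeloid master factor PU.1, had 6566 bp at chr2:90935939-90942504, and Irf4, the factor of the type 2 conventional lineage, 5758 bp at chr13:30840373-30846130. Batf3 (3574 bp), Zbtb46 (4070 bp), Klf4 (4776 bp) and Cebpa (4818 bp) had regions under the limit. Domains thus lay over most of the lineage factors, but not all.

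Surface and identity genes of dendritic cells were broad in 6 of 15. Their widest members were Csf2rb (10459 bp), a receptor subunit for the GM-CSF in the culture, Fscn1 (9129 bp), the actin bundler of mature dendritic cells, and Sirpa (7533 bp), a type 2 marker. Ccr7 (6937 bp), the receptor for migration to lymph nodes, Cd83 (6568 bp), a maturation marker, and Itgam (5495 bp), which encodes CD11b, completed the list. The gene of the selection marker, Itgax (CD11c), had a region of 2052 bp and the growth factor receptor gene Flt3 one of 2312 bp, both far from broad. Cd209a, Xcr1 and Mgl2 were not named for any region. Of the lists of other cell types, macrophages and monocytes had 2 of 10 broad, Fcgr1 (5215 bp) among them. Granulocytes and mast cells had 0 of 6, T cells 0 of 5, B cells 0 of 4, NK cells 0 of 4, erythroid cells 0 of 4 and non-haematopoietic tissues 0 of 2 (the exact intervals reach 45.9%, 52.2%, 60.2%, 60.2%, 60.2% and 84.2%).

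Among the other immune lists, antigen presentation had 6 of 17 broad (35.3%). They were the peptide transporter gene Tap1 (7303 bp), the class II gene H2-Eb1 (6863 bp), the protease gene Ctss (6660 bp), the class I genes H2-K1 (5973 bp) and H2-D1 (5121 bp), and the invariant chain gene Cd74 (5602 bp). Costimulatory and coinhibitory ligands had 5 of 14 (35.7%): Cd80 (7863 bp), which engages CD28 and CTLA-4, Cd274 (7813 bp), the ligand of PD-1, Cd83, Tnfsf4 (5842 bp) and Icam1 (5710 bp). TLR and NF-kB signalling had 9 of 35 (25.7%), with Traf1, Tnfaip3 (9137 bp), an inhibitor of NF-kB, Rel, Nfkbia (6653 bp), Irf5 (6624 bp) and Nfkb1 (6522 bp) the widest. Of the cytokines and chemokines only Il15 (6332 bp), 1 of 21 (4.76%), was broad, a share near the background that rests on where the limit falls. Il12b (4968 bp), a subunit gene of IL-12, and Ccl22 (4899 bp), a chemokine gene, lay just under it.

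The STAT3 and cytokine response targets were broad in 13 of 20 (65.0%). The widest were Hif1a, Bcl6, the receptor gene Tnfrsf1b (9465 bp), Junb (8822 bp), the kinase gene Pim1 (8450 bp) and Mcl1 (8060 bp). The JAK-STAT pathway and its inhibitors had 8 of 31 (25.8%). Among these were the inhibitor genes Socs2 (8665 bp) and Socs1 (5483 bp), Il4ra (6677 bp), the receptor for the IL-4 in the culture, Jak2 (6155 bp over its start) and the phosphatase gene Ptpn1 (5617 bp).

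Immediate early and stress factors were broad in 14 of 28, led by Atf3 (9773 bp), Junb, Nr4a3 (8551 bp), Klf6 (7485 bp), Fosl2 (7435 bp) and Ddit3 (6809 bp). Cell cycle inhibitors and genes known to respond to deacetylase inhibitors had 8 of 17 (47.1%), with Btg1 (7911 bp), Cdkn1a (7038 bp), Mdm2 (6483 bp), Txnip (6286 bp), Cdkn1b (5727 bp) and Gadd45b (5539 bp) the widest. The enzymes of H3K4 methylation and histone acetylation had 4 of 32 (12.5%), which were Setd1b, Kmt2d (6445 bp), Kmt2a (5091 bp) and Kat2b (5071 bp). Housekeeping genes had 2 of 13 (15.4%), Actb (9457 bp) and Ywhaz (5212 bp), and cytosolic ribosomal protein genes 1 of 40 (2.50%), Rpl18 (5627 bp). The median widest region was 2794 bp for ribosomal protein genes and 5774 bp for the dendritic cell factors.

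**Figure D1:**
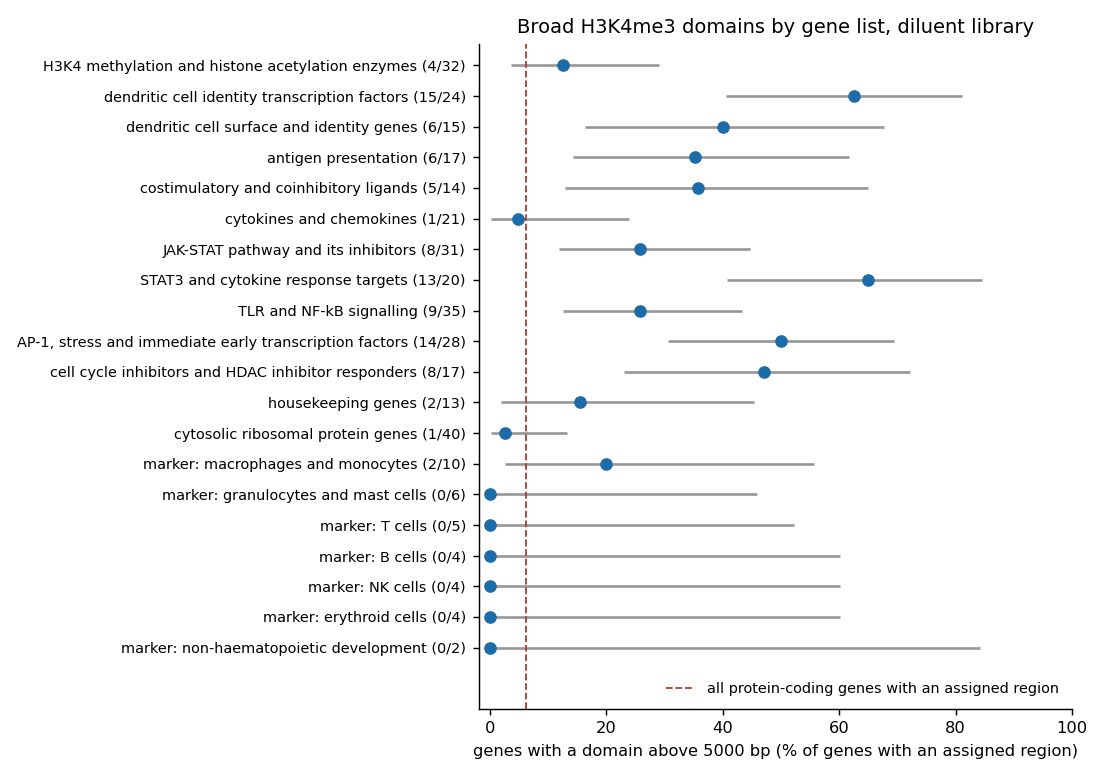
Percent of each list's genes that had an H3K4me3 domain above 5000 bp, of those named for any region in the diluent list; points are percents, lines exact binomial 95% intervals, counts stand in brackets, and the dashed line is the share over all protein-coding genes (6.20%). The dendritic cell factors (62.5%) and STAT3 and cytokine response targets (65.0%) lie far to the right of the dashed line, while cytokines (4.76%) and ribosomal protein genes (2.50%) lie beside it. Some lists share members.

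In the SAHA library every one of the 848 domains was overlapped by an H3K4me3 region, against 94.6% of all 22255 regions. The summed width of the overlapping SAHA regions had a median of 7046 bp, and 739 domains (87.1%) were wider in SAHA and 109 narrower. Over all 21059 regions that overlapped a SAHA region 69.5% were wider, and in the middle width class 73.4%. The median log2 ratio of SAHA to diluent width was 0.15 at domains (middle 50% from 0.05 to 0.37), 0.08 in the middle class and 0.10 in regions of up to 2000 bp. The median gain at domains was 732 bp. In all, 97 domains (11.4%) were at least 1.5-fold wider, a share near the background of 10.5% over all regions but above the 4.86% of the middle class and below the 14.4% of regions of up to 2000 bp, and 1 (0.118%) was at least 1.5-fold narrower, against a background of 1.80%. The 1 narrower domain, G530011O06Rik on chromosome X, measured 5155 bp in diluent and 3036 bp in SAHA. The SAHA list as a whole was longer, with 25723 regions over 52.2 Mb.

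Because the domains were picked for their width in diluent, the mirror was examined as well. The SAHA list held 1370 regions above 5000 bp (5.33%). Of these, 1365 overlapped a diluent region, with a median log2 ratio of diluent to SAHA width of -0.21, and 155 (11.4%) were at least 1.5-fold narrower in diluent and 3 at least 1.5-fold wider. The width was thus lower in diluent whichever library did the picking. Of the 848 domains, 789 (93.0%, exact binomial interval 91.1 to 94.7%) still had a SAHA region above 5000 bp. The longest SAHA region at the other 59 had a median of 4394 bp, from a median of 5351 bp in diluent.

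The gain lay mostly on the side of the gene body. In the 720 domains with a start inside and a single SAHA region, the upstream edge lay a median of 80 bp further out in SAHA and the downstream edge 532 bp further out. The downstream edge had moved the more in 562 of them (78.1%). Shifts of at least 500 bp outward were found at 374 downstream and 104 upstream edges. In 88 of these domains the SAHA region also covered other diluent regions, so that neighbouring regions were joined in SAHA, and their downstream edge lay a median of 2470 bp further out. In the other 632 the medians were 66.5 bp upstream and 457 bp downstream. In 6837 regions of the middle class with the same conditions they were 14 and 111 bp, and the downstream edge moved the more in 68.0%.

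**Figure D2:**
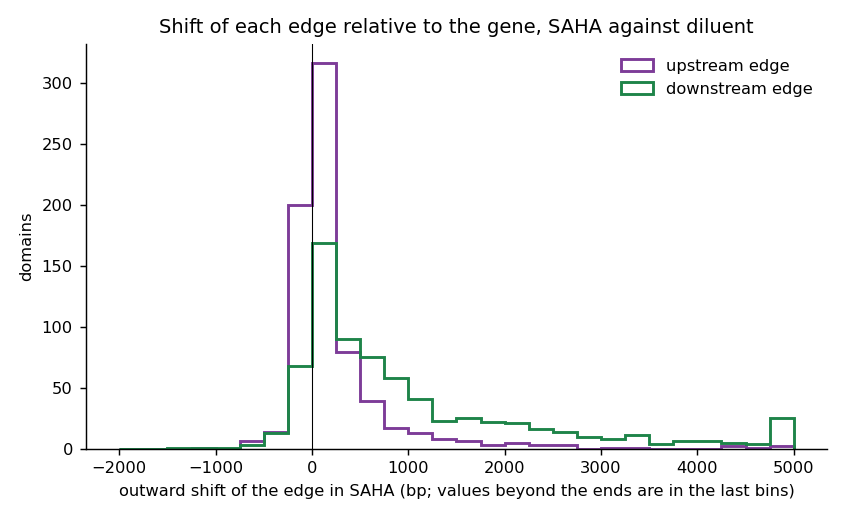
Number of domains by the outward shift of each edge in SAHA against diluent, in bins of bp, for the 720 domains with a start inside and a single SAHA region; positive values lie further from the start. The upstream edges pile up near 0 (median 80 bp), while the downstream edges (median 532 bp) trail to the right.

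Joining set the largest ratios. The domain of B3gnt2, a glycosyltransferase gene, measured 6138 bp in diluent and 18845 bp in SAHA, 3.07-fold, under a SAHA region that covered 5 diluent regions. Bmp2k went from 7087 to 20272 bp. Lcp1, the gene of the leukocyte actin bundler L-plastin, went from 6989 to 17523 bp at a domain that does not hold its start. Tap1 went from 7303 to 18381 bp, since 1 SAHA region covered 3 diluent regions and took in that of its neighbour Psmb8, an immunoproteasome gene. Samd9l, an interferon-induced gene, went from 6528 to 16312 bp. Nfe2l2 had the longest SAHA region of the whole list, 24538 bp, over 3 diluent regions. At Evi2b 2 domains shared 1 SAHA region of 13348 bp, and at St3gal3 2 adjacent domains shared one as well, so their ratios (2.45-fold for the narrower Evi2b domain and 2.87-fold for St3gal3) are not their own.

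Gains without joining were found at Irf4, where 1 SAHA region covered only this domain. It measured 5758 bp in diluent and 13133 bp in SAHA (2.28-fold), and 7147 bp of the gain lay downstream. Other lineage factors were wider too, with Spi1 at 9962 bp in SAHA, Irf8 at 14314 bp, Zeb2 at 15948 bp, Etv6 at 12526 bp and Rel at 11188 bp, while Id2 (9690 bp), Ikzf1 (7588 bp) and Runx1 (7387 bp) had log2 ratios of 0.02, 0.05 and 0.04. The SAHA regions at Irf8, Zeb2, Etv6 and Rel also covered other diluent regions. The 15 broad lineage factors had a median log2 ratio of 0.30, the 5 broad costimulatory and coinhibitory ligands 0.60 and the 6 broad antigen presentation genes 0.39, against 0.15 over the domains of all protein-coding genes. Higher medians were not particular to these lists. The 2 broad macrophage and monocyte genes had 0.41, the 6 dendritic cell surface genes 0.37 and the 9 TLR and NF-kB genes 0.30. The 8 broad JAK-STAT genes had 0.13 and the 4 enzymes of H3K4 methylation and histone acetylation 0.04. Cd83 went from 6568 to 12061 bp, Icam1 from 5710 to 8801 bp and H2-Eb1 from 6863 to 11682 bp. Il4ra (6677 to 11236 bp), Tnfrsf1b (9465 to 15263 bp) and Cdkn1b (5727 to 11535 bp) were also among the larger gains. The SAHA regions at Icam1, Tnfrsf1b and Cdkn1b also covered other diluent regions, and those at Cd83, H2-Eb1 and Il4ra did not. The 14 broad immediate early and stress factors had a median log2 ratio of 0.13 and varied among themselves. Nr4a3 went from 8551 to 13147 bp and Atf3 from 9773 to 12181 bp, while Fos measured 6218 and 6265 bp, Myc 6374 and 6484 bp, Ier2 6549 and 6661 bp and Junb 8822 and 9104 bp in diluent and SAHA.

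At the widest domains the gains were uneven. Hif1a measured 16869 bp in SAHA, Traf1 15013 bp and Psap 14926 bp. Cacnb3 measured 13058 bp, Znfx1 13702 bp, Setd1b 11246 bp and Atp6v0c 11480 bp, each close to its width in diluent. Actb went from 9457 to 9395 bp. The smallest ratios among genes with a common name belonged to Sash1 (5126 to 3838 bp, 0.749-fold) and pa (5490 to 4330 bp). Next were Ptk2b (5070 to 4145 bp), whose domain does not hold its start, and Entpd1 (5044 to 4393 bp), which encodes the ectonucleotidase CD39. All of these had widths near the limit of 5000 bp in diluent.

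**Figure D3:**
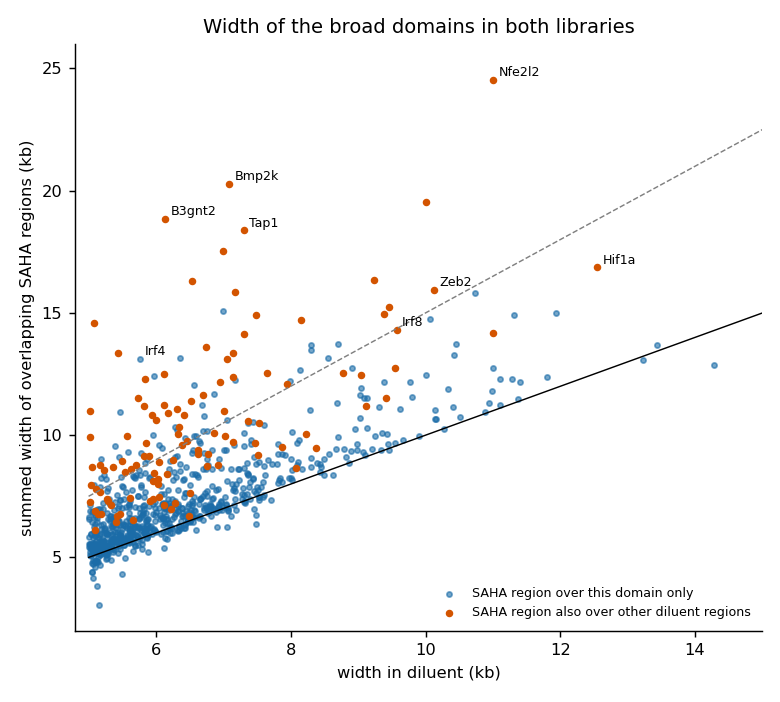
Width of each of the 848 domains in diluent against the summed width of the SAHA regions over it, both in kb; the solid line is equal width and the dashed line 1.5-fold. Most points (739 of 848) lie above the solid line, and the highest, Nfe2l2 with 24538 bp in SAHA, is among those whose SAHA region also covered other diluent regions (orange).

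Tags per kb were taken from the tables called on each H3K4me3 library alone. These tables held no region longer than 9457 bp in diluent or 9395 bp in SAHA, although the lists against IgG reached 14287 and 24538 bp, so tags were available in both libraries for 673 domains (79.4%). Diluent tags alone were available for 121 domains, which were those with the larger gains in width (median 7004 bp in diluent and 10496 bp in SAHA). SAHA tags alone were available for Npc2, and neither for 53, among them all others of the 15 widest. What follows therefore leaves out the widest domains and those that widened most. A missing value is not a value of 0.

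Across the 673 domains the median was 429 tags per kb in diluent (middle 50% from 336 to 530) and 381 in SAHA (305 to 467). In the middle width class the medians were 404 and 348, and in regions of up to 2000 bp 81.5 and 86.8. A domain was thus about as dense in tags as a region of middling width, and its larger total (median 2540 against 1115 tags in diluent) came with its length. The fold enrichment in the same tables, a ratio to a local background within the same library, was lower at domains (median 6.03 in diluent and 5.36 in SAHA) than in the middle class (10.7 and 10.1). At these widths the local background may include the domain itself, which was not tested, and the ratio was not used further.

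Cst3, the gene of the protease inhibitor cystatin C, had the highest density, 1053 tags per kb in diluent against 938 in SAHA, from 6205 and 5827 tags. Klf6, a Krüppel-like factor gene, had 1039 and 847 tags per kb. Clec2d, the gene of a C-type lectin ligand, had 985 and 807. Cflar, an inhibitor of caspase-8, had 844 and 575 at a domain that does not hold its start. Btg1 had 839 and 729, the small GTPase gene Arl4c 835 and 695, and Gadd45b 824 and 730. Cytip had 827 in diluent and no value in SAHA. These genes were picked for their density in diluent, so their lower values in SAHA, not scaled to depth, are no result. The Jak2 domain over its start, of similar density, had 817 and 908.

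After scaling to the filtered tags of each library, the median log2 ratio of SAHA to diluent tags per kb was -0.12 at the domains (middle 50% from -0.24 to 0.03), -0.15 in the middle class and -0.07 over all 19030 regions with both values. Counting intervals lay below 0 at 381 of 673 domains, over a background of 33.3%. They lay above 0 at 137, over a background of 14.4%, and spanned 0 at 155. The background includes regions of up to 2000 bp, where the median was 95.0 tags in diluent and 6989 of 10209 intervals spanned 0. In the middle class, intervals lay below 0 at 4472 of 8148 regions, above 0 at 860 and spanned 0 at 2816. The domains were thus close to the middle class in this respect. These intervals cover counting error in 2 libraries and not the spread between cultures. Only 9 domains were at least 1.5-fold higher in SAHA (background 5.96%) and 13 at least 1.5-fold lower (background 2.74%). Tags per kb moved against width: in the 285 domains wider by over 10% in SAHA the median was -0.20, in the 330 within 10% it was -0.08, and in the 58 narrower by over 10% it was 0.12. Total tags, not divided by width, had a median log2 ratio of 0.02 over the 673 and of 0.10 in the 285. Dividing by a width that differs between the libraries thus moves the value by more than the median itself.

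**Figure D4:**
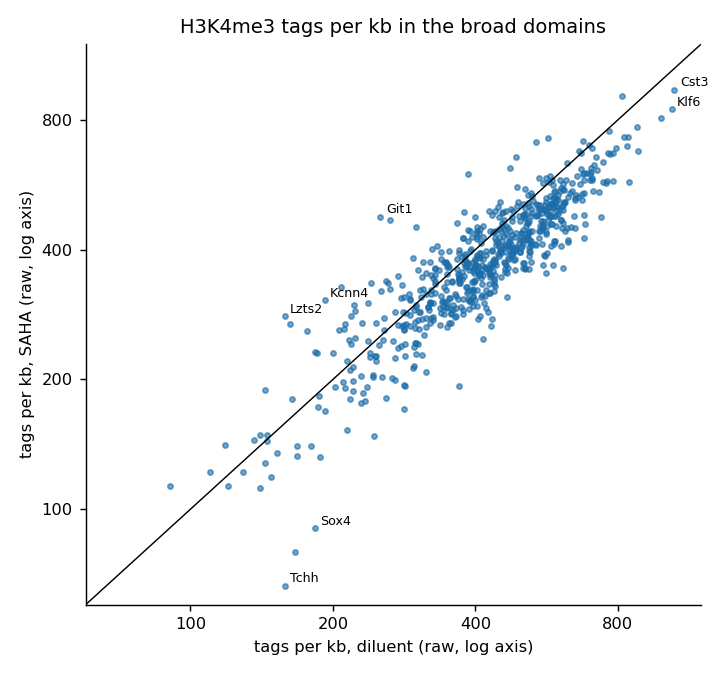
Tags per kb, not scaled to depth, in diluent and SAHA for the 673 domains with values in both single-library tables, on log axes; the line is equality. Most points lie just below the line (medians 429 and 381), with Tchh and Sox4 far below it and Lzts2 and Kcnn4 above it; the SAHA value of Git1 rests on part of the domain.

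The largest log2 ratio, 0.98 at Git1, rests on a SAHA region of 1720 bp within a domain of 6512 bp, and 14 of the 673 domains had SAHA tags for under 60% of their SAHA width. With full coverage, Lzts2, a gene of the leucine zipper tumour suppressor family, had 831 tags in diluent and 1524 in SAHA at widths of 5264 and 5441 bp (log2 ratio 0.89, counting interval 0.77 to 1.02). Rara, the retinoic acid receptor alpha gene, had 1388 and 2806 tags (0.89) at 5252 and 5996 bp. A domain 11.69 kb from the Jak2 start had 839 and 2371 tags (0.80) at 5170 and 8799 bp. Its SAHA region also covered another diluent region, so the SAHA tags come from more ground. Kcnn4, a potassium channel gene, had 995 and 1664 (0.73). All of these began from low densities in diluent, 158 to 264 tags per kb.

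At the other end, Tchh had 796 tags in diluent and 197 in SAHA (log2 ratio -1.18), with 2 regions in SAHA. Sox4, a transcription factor gene of progenitor cells, had 1025 and 510 tags at nearly the same width, 5586 and 5657 bp (-0.96, counting interval -1.12 to -0.81). Rin2, a Rab5 exchange factor gene, had 2207 and 1432 tags (-0.87), at a width of 5959 and 7406 bp. The Rin2 domain does not hold the listed start, and its SAHA region also covered another diluent region. Hist1h2af, in a histone cluster, had 2835 and 1657 (-0.68), and since histone genes are near-identical copies its tags may be shared among them. Ube2d3, a ubiquitin conjugating enzyme gene, had 3202 and 3023 tags, so its ratio of -0.69 came with a width that went from 5226 to 8353 bp. Evl (1595 and 890 tags) and Dnajc1 (2639 and 2018 tags) also stood among the lowest ratios.

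STAT3 regions of the diluent list overlapped 105 domains (12.4%, exact binomial interval 10.2 to 14.8%), against 5.28% of the middle width class, 2.49% of regions of up to 2000 bp and 3.91% of all regions. Those of the SAHA list overlapped 205 domains (24.2%, interval 21.3 to 27.2%), against 14.6%, 5.16% and 9.42%. These shares rise with width, and a wide region offers more sequence. Per Mb of region there were 20.8 diluent STAT3 midpoints at domains (exact Poisson interval 17.2 to 25.0), 17.3 in the middle class and 18.2 in regions of up to 2000 bp. For SAHA the values were 40.6 (35.4 to 46.3), 49.9 (47.1 to 52.7) and 38.6. Per base, then, domains held diluent STAT3 regions at about the density of other H3K4me3 regions, and SAHA STAT3 regions at a lower density than the middle class. The domains made up 12.2% of H3K4me3 bases and held 13.3% of the diluent and 10.6% of the SAHA STAT3 regions that touched any H3K4me3 region.

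The SAHA list was the longer one, with 8552 STAT3 regions against 3507. When as many top-scoring SAHA regions as diluent regions were used, 132 domains (15.6%) had a SAHA STAT3 region, against 105 in diluent. In the STAT3 tables called on each library alone, without IgG, 12 domains had a region in diluent and 14 in SAHA. Those tables held 844 regions in diluent and 784 in SAHA, so the higher SAHA share rests on the lists against IgG. No STAT3 region in a domain overlapped a region called in the IgG library, and 1 domain, at the interferon-induced Oasl1, did.

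**Figure D5:**
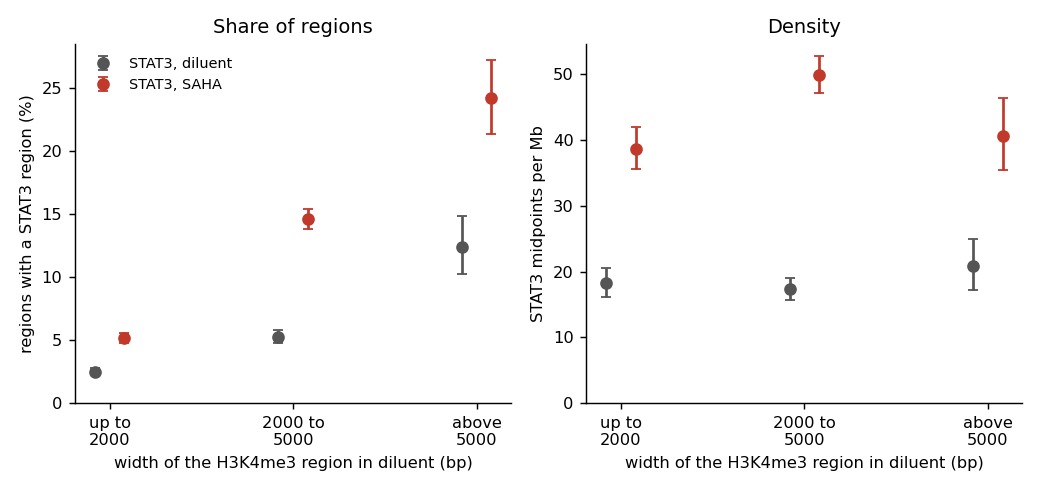
Percent of H3K4me3 regions with a STAT3 region (left, exact binomial 95% intervals) and STAT3 midpoints per Mb (right, exact Poisson 95% intervals) by width class in diluent. The percent climbs with width in both libraries, to 12.4% and 24.2%. The density in diluent is 18.2, 17.3 and 20.8 per Mb from the narrowest class to the domains. In SAHA it is highest in the middle class (49.9 per Mb).

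Both libraries had a STAT3 region in 34 domains (4.01%), diluent alone in 71, SAHA alone in 171 and neither in 572 (67.5%). Of the 34, a diluent and a SAHA region overlapped in 17, among them Sod2, Ccnl1, Arid1a, a chromatin remodeller gene, Parp9, an interferon-linked gene, Hcst, the gene of the adaptor DAP10, Nfe2l1, Zfp217 and Mtss1. In the other 17 no diluent region overlapped a SAHA region by a base, although some lay close together, as the pair at Irf2 did. At Junb the diluent regions lay 2229 and 4285 bp downstream of the start and the SAHA region at -2397 bp, upstream of it. At Setd1b the diluent region lay at -1881 bp and the SAHA region 2209 bp downstream. The survival genes Bcl2a1d (9388 bp) and Bcl2a1b (9233 bp) were also among the 17, and as paralogs their reads may be hard to tell apart.

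With a listed start inside the domain, 23 of 105 diluent STAT3 regions lay within 500 bp of it, 24 further upstream and 58 further downstream. Of 226 SAHA regions 64 lay within 500 bp, 59 upstream and 103 downstream. The median distance from the start was 1693 bp in diluent and 1172 bp in SAHA. Most STAT3 regions thus lay inside the domain but off the start, on the gene body side more often than upstream, as did most of the domain's own length. Their authors' scores had a median of 38.1 in domains against 35.0 over the diluent list, and 41.0 against 35.4 over the SAHA list. STAT3 regions at other H3K4me3 regions had medians of 38.0 and 39.0, so most of this difference was shared by STAT3 regions at H3K4me3 of any width.

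The highest score in diluent, 147, belonged to a STAT3 region at chr10:51173289-51174536, in the Lilrb4 domain whose midpoint lies 26.72 kb from the listed start. Next in diluent were a region in the domain of Mir26b (130) and one in that of Cd53 (110), a tetraspanin gene whose domain held 3 diluent STAT3 regions. In SAHA the highest was in the domain of Clcn7 (143), a lysosomal chloride exchanger gene, at -3049 bp from the start, upstream, chr17:25269562-25271491. Slfn2, whose CG-poor promoter is printed above, had one with a score of 132 at chr11:82878270-82879163, 103 bp downstream of the start, and Uvrag, an autophagy gene, one with 123. SAHA STAT3 regions also lay in the domains of Cdkn1a (score 76.2, 1487 bp downstream), Cdkn1b (45.0, 480 bp downstream), Bcl6 (46.6, -342 bp from the start), Relb (50.7) and Nr4a3 (45.3). Cd83 (32.7, 3830 bp downstream) and Ctsb (31.5) had diluent STAT3 regions alone.

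Width and tags differed little with STAT3 status. The median log2 width ratio was 0.13 in the 34 domains with STAT3 in both libraries, 0.15 with diluent alone, 0.15 with SAHA alone and 0.16 with neither. At least 1.5-fold wider were 8.82%, 7.04%, 15.2% and 11.0% in the same order, which are 3, 5, 26 and 63 domains. The median log2 ratio of tags per kb was -0.13, -0.12, -0.11 and -0.12 in the same order. By list, SAHA STAT3 regions lay in 4 of the 15 broad lineage factors, 4 of the 13 broad STAT3 and cytokine response targets and 4 of the 8 broad cell cycle genes, and diluent regions in 1, 1 and 0 of them, beside the 24.2% and 12.4% of all domains. Among other lists, SAHA regions lay in 4 of the 14 broad immediate early and stress factors, 2 of the 9 TLR and NF-kB genes and 1 of the 8 JAK-STAT genes. They lay in 1 of the 6 broad dendritic cell surface genes, 1 of the 5 costimulatory and coinhibitory ligands and 0 of the 6 antigen presentation genes.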

How the data were processed

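H3K4me3, STAT3 and IgG were mapped by ChIP-seq in 5 libraries of mouse dendritic cells, 1 per group. Per the submitters' processing notes, alignment used BWA and the mm9 build. Per the file headers, the authors called regions of each single library (MACS 1.4.0rc2, p limit 1e-05, up to 2 duplicate tags kept, no control); these deposited tables give tag counts and fold enrichment, a ratio. The authors' deposited lists against IgG give each region's score, which stops at 3100 for H3K4me3 (reached by 845 of the 848 domains), and 1 gene. The sources used here do not give the calling method of these lists. Read totals came from the deposited sequencing quality tables.

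Regions were matched by overlap of at least 1 bp, and coordinates are 1-based. Tags per kb came from overlapping single-library regions. Ratios were scaled to filtered tags, with exact conditional binomial 95% intervals. Shares carry Clopper-Pearson and densities exact Poisson intervals, and all intervals cover counting error only. No test between conditions was possible with 1 library each. On simulated counts for 796 diluent regions, all 200 regions changed 1.5-fold were recovered and 94.0% of intervals held the true ratio. The simulation had counting error alone and the same width in both libraries. It therefore checks the arithmetic of the intervals only, and not ratios where the width differs between libraries. Of 14123 symbols in the diluent list 90.5% matched RefSeq, and symbols stored as dates were restored. Promoters came from genes with 1 RefSeq entry (GRCm38.p6). Named genes were the 15 widest domains, the 8 at each end of width and tag ratios, the 8 with most tags per kb, up to 10 with STAT3 in both libraries, the 4 nearest the limit on each side and up to 6 per gene list, passing over predicted genes; other named genes, among them those with the highest STAT3 scores, were added after their values were seen. The domains and the 20 gene lists were chosen with earlier results of these data known. Python 3.11.15, numpy 2.4.6, scipy 1.17.1, pandas 2.3.3 and matplotlib 3.10.9 were used. A few genes are not reported here.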

Additional observations from a re-analysis of the deposited data

How the results depend on the processing

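Over 11 results and 50 alternatives, 27 values stayed within the spread of the reported value, 21 moved beyond it and 2 lost or reversed their sign. The median log2 ratio of tags per kb was 0.00 with domains above 8000 bp alone, where tags were available for few. For total tags not divided by width it was 0.02, of the opposite sign. It was -0.07 when scaled to the tags in called regions, -0.18 unscaled and -0.08 in domains whose SAHA width lay within 10%, an alternative added after seeing the data. The median log2 width ratio was 0.10 in the single-library tables and, in an alternative added after seeing the data, 0.12 under SAHA regions over no other diluent region. The number of domains was 1789 at a limit of 4000 bp and 105 at 8000 bp. The share still above the limit in SAHA was 95.2% at 8000 bp, 90.8% when 50% of the SAHA region had to lie inside the domain and 90.6% in the single-library tables. The share with a STAT3 region in diluent was 20.0% at 8000 bp and 5.78% with scores of at least 40 (9.32 per Mb); in SAHA it was 34.3%, 13.6% (22.1 per Mb) and, with equal numbers of regions, 15.6% (25.2 per Mb). At 4000 bp 138 list members were broad. The median CG ratio of promoters was 0.780 at 4000 bp and 0.698 at 8000 bp. No paired analysis was possible because each group had 1 library. The domains with tags in both libraries had a median of 2540 tags in diluent, and whether depth limits the called widths was not tested. Tags per kb are limited by the single-library tables, which held no region above 9457 bp in diluent. Culture, antibody lot and library effects cannot be told apart from SAHA.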

Other observations

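The gap between a domain and the next H3K4me3 region of the diluent list had a median of 8500 bp, and 140 of the 848 domains had a neighbour within 1000 bp. SAHA regions that covered a domain together with other diluent regions were found at 110 domains (13.0%), against 4.46% in the middle width class and 5.69% of all regions. Conversely, 103 domains were overlapped by 2 or more SAHA regions. Just below the limit, 941 regions above 4000 and up to 5000 bp had a median log2 width ratio of 0.13, and 380 of them (40.4%) had a SAHA region above 5000 bp. Of the 1370 SAHA regions above 5000 bp, 5 lay over no diluent region.

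Among domains above 10000 bp, 32 in all, 21.9% had a STAT3 region in diluent and 40.6% in SAHA, at 19.8 and 45.1 midpoints per Mb. Among the 413 of up to 6000 bp the shares were 10.9% and 23.0%, at 20.5 and 47.3 per Mb.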
